A study of Drosophila melanogaster with 12 samples.

Results

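The control photoreceptors of the series, named Rh1>Ctrl, were described by themselves, as a baseline of the RNA present in photoreceptor nuclei. They make up 6 of the 12 libraries, 3 from flies at D1 and 3 from flies at D10, and were chosen by their labels, with no use of their measured values. All 13929 genes of the count table were read in these 6 columns, and no group was tested against another. The Rh1>Ctrl flies were males of a w stock that carried UAS-GFP-Msp300KASH, rh1-GAL4 in a ry background, and UAS-LacZ, which stands in the control for the transgene expressed in the other 6 libraries. They were kept under alternating light and dark and collected at ZT 9, at the age the labels' protocol calls D1 (day 2 in the sample titles) or D10. The KASH tag places GFP on the outer nuclear membrane, so that nuclei can be enriched with an antibody from pooled heads, and the RNA of these nuclei was then sequenced. The driver rh1-GAL4 is active in the outer photoreceptors R1 to R6 and leaves the inner photoreceptors R7 and R8 unmarked, so the material is an enrichment and not a sort of single cells. Because each library is a bulk of nuclei, a low value cannot tell fewer cells of a type from less RNA in each cell. The libraries are labelled as replicates, and the study's methods describe them as biological replicates from separate pools of flies.

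Levels are given on 2 scales. CPM is the count of a gene as a share of all counts of its library (24423 CPM are 2.44% of the counts), and it grows with the length of the transcript. TPM divides each count by the length of the gene's annotated exons before the same scaling, and is the scale used here to set one gene against another. The 6 libraries held 5279375, 5051261 and 2680229 counts at D1 and 3020600, 1356529 and 4862510 counts at D10, a range of 3.89-fold. Libraries of the same age were further apart than sampling alone gives (chi-square divided by its degrees of freedom from 4.95 to 58.0 in 6 replicate pairs), so for abundant genes the spread between libraries set the precision and not the depth.

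Of these libraries, 2 stood apart from the rest. In D1 replicate 3, 13097 genes had a count, against 9267 to 10314 in each of the other 5. It alone had counts for 1279 of the 1941 genes that were at 0 in the other 5 libraries, with a median of 4 and a maximum of 41 counts over the 1941 genes, which made up 0.394% of its counts. When a single other library was set aside in the same way, it alone held counts for 5 to 24 genes. D10 replicate 2 was the shallowest library, and for 686 of the 1256 genes with a mean of at least 100 CPM it was the library farthest from the median of the 6. Pearson's r of log2(CPM + 1) between libraries over these 1256 genes ranged from 0.727, between these same 2 libraries, to 0.996, between D1 replicates 1 and 2. Genes are not independent points, so r describes the libraries and was not tested. Where leaving out either library moved the mean of a named gene by more than 1.5 times, its mean without that library is also given. The SDs of many genes rest on D10 replicate 2, and their CV without it is given for some of them.

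Photoreceptors detect light with rhodopsin, a G protein-coupled receptor packed into a stack of microvilli called the rhabdomere. In the fly, activated rhodopsin works through a Gq protein on phospholipase C, and the breakdown of its lipid substrate opens the TRP and TRPL cation channels. Arrestins end the signal, and the cell passes it on by releasing histamine. The same cells hold a molecular clock, in which Clk and Cyc drive transcription of tim, per, vri, Pdp1 and cwo. RNA from nuclei is richer in newly made transcripts than RNA from whole cells, so it reflects transcription more closely than it does the store of messenger RNA in the cytoplasm.

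The cell type given by the labels was first checked against 4 markers. The gene ninaE, which encodes Rh1, the opsin of R1 to R6 (FBgn0002940, dm6 chromosome 3R from 19886255 to 19888206), was at 4520.2, 4376 and 2882 CPM in the D1 libraries and 9077, 10076 and 9853 CPM in the D10 libraries. Its mean was 6797 ± 3214 CPM (SD, n = 6), with all 3 D10 libraries above all 3 D1 libraries. Such a separation of the ages, in either direction, was found for 402 of the 1256 genes with at least 100 CPM (32% of them), so it is common in these libraries. The TRP channel gene trp (FBgn0003861, 3R from 29914521 to 29920289) was at 18976, 17160 and 12492 CPM in the D1 libraries and 8874, 19925 and 11982 CPM in the D10 libraries, and the ages overlapped. Arr2, the major arrestin (FBgn0000121, 3L from 8647261 to 8648936), was at 1589, 1530.1 and 1171 CPM in the D1 libraries and 3259, 6232 and 4334 CPM in the D10 libraries, again with the D10 libraries highest. The clock gene tim (FBgn0014396, 2L from 3493986 to 3508119) was at 18690, 18456 and 15399 CPM in the D1 libraries and 13842, 15658 and 14196 CPM in the D10 libraries. All 8 genes of the outer photoreceptor list, which adds chp, ninaC, norpA and inaD, had at least 1 CPM in every library, and the list held 8.63% ± 1.16 of the counts (SD, n = 6). The markers were therefore present at high levels in all 6 libraries. Of them, only ninaE is named above for R1 to R6, so the share of the whole list does not tell outer from inner photoreceptors.

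The entries of the count table are nearly all protein-coding genes, so the ranking leaves out most non-coding RNA. The most abundant of them by share of counts was norpA, the phospholipase C of phototransduction (FBgn0262738, X from 4322626 to 4365408). It was at 22810, 21347 and 22971 CPM in the D1 libraries and 22313, 35506 and 21591 CPM in the D10 libraries. Without D10 replicate 2, its libraries lay between 21347 and 22971 CPM, and its CV (SD divided by mean) was 0.0325 in place of 0.224. The next was shot, a spectraplakin that links actin and microtubules, at 20021 ± 6139 CPM (SD, n = 6), and its highest library was also D10 replicate 2. It was followed by rdgA, the diacylglycerol kinase of the phototransduction cycle, at 20902, 20011 and 20157 CPM in the D1 libraries and 16599, 18875 and 15486 CPM in the D10 libraries. The D10 libraries of rdgA all lay below the D1 libraries. Then came tim at 16040 ± 2081 CPM (SD, n = 6), and Doa, a LAMMER protein kinase, at 15136 ± 3997 CPM (SD, n = 6), followed by the channel gene trpl at 15048 ± 5547 CPM and trp at 14901 ± 4418 CPM. The eighth gene was ninaC, the myosin III of the rhabdomere, at 13289, 12501 and 11302 CPM in the D1 libraries and 9931, 10747 and 12395 CPM in the D10 libraries. Its CV of 0.107 was the lowest of the 20 leading genes.

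The leading 20 genes went on with Msp300, the nesprin of the nuclear envelope, at 9701 ± 1902 CPM (SD, n = 6). Part of the Msp300 sequence is in the KASH transgene of these flies, and its share in these counts was not tested. Next were chp, the chaoptin adhesion protein of the rhabdomere, at 8405 ± 1926 CPM, and unc-13, the synaptic vesicle priming factor, at 8347 ± 2729 CPM. Genes for ion channels and their partners followed. These were Slob, which binds the Slowpoke potassium channel, at 7979 ± 1676 CPM, the potassium channel Sh at 7951 ± 2968 CPM, and the calcium channel subunit Ca-alpha1D at 7412 ± 967 CPM. The remaining 6 were Ank2, an ankyrin, at 7952 ± 2338 CPM, the G protein subunit Ggamma30A at 7364 ± 2548 CPM, the clock factor Pdp1 at 7226 ± 1938 CPM, the microtubule protein futsch at 7082 ± 3769.7 CPM, the sodium pump subunit Atpalpha at 7029 ± 1027 CPM, and ninaE. In each of futsch, Sh, unc-13, Ggamma30A, Pdp1 and Atpalpha, the library farthest from the others was D10 replicate 2, which was the highest for futsch (14510 CPM) and the lowest for the other 5. The CV of futsch was 0.532 with this library and 0.197 without it. Over these 20 genes, the D1 and D10 libraries did not overlap in 4, against 32% of the genes with at least 100 CPM. All 20 stayed in the leading 20 when CPM was rescaled with TMM or DESeq2 size factors, and 18 did without D10 replicate 2. Exons of 6 of the 20 overlap another annotated feature, 5 of them on the same strand (tim, Msp300, unc-13, Ank2 and futsch), and reads in the shared stretches cannot be assigned with certainty.

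**Figure D1:**
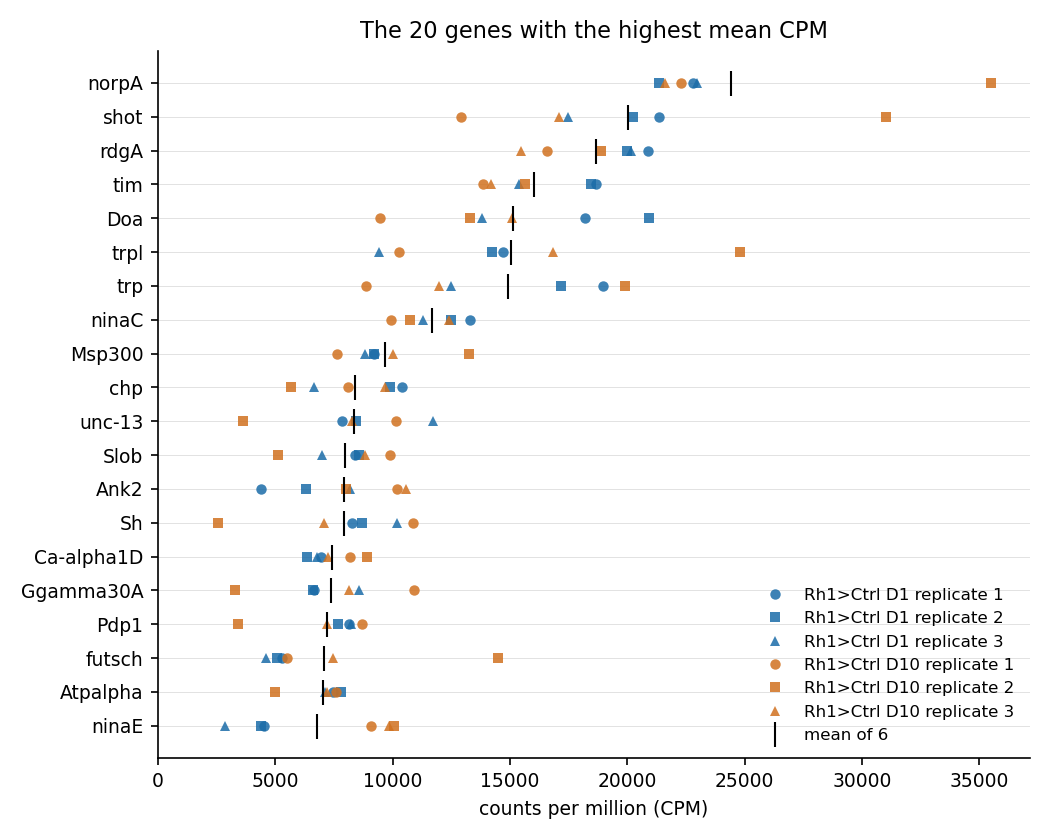
CPM of the 20 genes with the highest mean in the 6 Rh1>Ctrl libraries (colour for age, symbol for replicate, black bar for the mean of 6). The libraries of norpA lie between 21347 and 22971 CPM except for D10 replicate 2 at 35506 CPM, while the 3 D10 libraries of ninaE, at 9077 to 10076 CPM, all lie above its D1 libraries.

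Counts were concentrated in few genes. The 10 leading genes took 15.4% ± 2.45 of all counts (SD, n = 6), from 12.0% in D10 replicate 1 to 18.9% in D10 replicate 2. The leading 100 took 46.9% ± 1.30 and the leading 1000 took 84.3% ± 1.88 (SD, n = 6). A mean of at least 1000 CPM was reached by 169 genes, at least 100 CPM by 1256 and at least 10 CPM by 4404. The 121 leading genes together held 50% of the mean CPM. On the scale of TPM the same share needed 263 genes, and the 100 leading genes by TPM held 36.9% of the TPM, so per length the RNA was spread over more genes. The 100 leading genes by CPM spanned a median of 31796 bases from start to end, against 4052 bases for the detected genes and 2163 bases for all annotated genes. Their median exon length was 8781 bases, and 70% of them spanned more than 20000 bases.

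**Figure D2:**
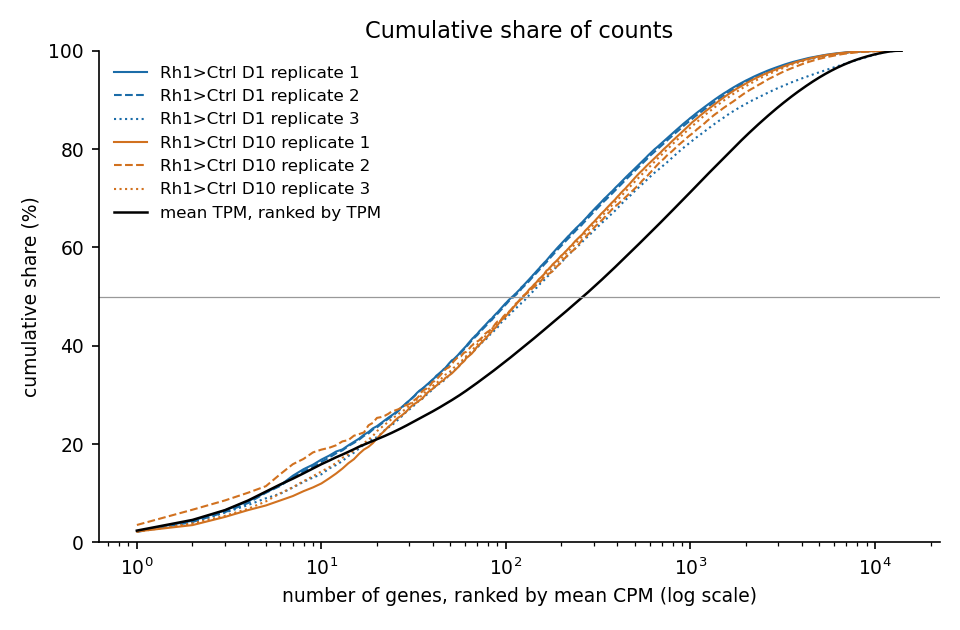
Cumulative share of counts (%) against the number of genes on a log scale, ranked by mean CPM, in each Rh1>Ctrl library, with the mean TPM ranked by TPM in black and a grey line at 50%. The 6 count curves reach 45.6% to 48.7% at 100 genes, above the TPM curve at 36.9%.

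Per length, the order changed. The highest level was that of sunz, at 24087 ± 6281 TPM (SD, n = 6) and 4406 CPM. Second was ninaE at 21689 ± 10398 TPM, which by CPM was only the twentieth gene. The next was CG43255 at 19888 ± 7666 TPM (SD, n = 6). This gene of 490 exonic bases lies wholly inside the span of rdgA, on the same strand, and reads from unspliced rdgA transcripts that cover it cannot be told apart from its own. Then came trpl at 19544 ± 7334 TPM, trp at 18132 ± 5552 TPM, norpA at 14831 ± 3334 TPM, tim at 11493 ± 1633 TPM, ninaC at 10871 ± 1312 TPM, Arr2 at 9881 ± 6532 TPM and chp at 8725 ± 2157 TPM (SD, n = 6 each). From sunz down to norpA, each gene differed from the next by less than the SD of at least one of the pair, so neighbours in this order were not separated beyond their spread, whereas sunz and norpA, at its ends, differed by more than the SD of either. Of the leading 20 genes by CPM, 12 were also in the leading 20 by TPM. The long genes shot, futsch, unc-13, Ank2 and Msp300 moved down, with 3319.6 TPM, 1534 TPM, 1854 TPM, 852 TPM and 700.5 TPM.

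Of the gene lists used here, that of phototransduction took the largest share of counts, although 69 of the 100 leading genes by CPM are in no list. All 27 of its genes were detected, meaning at least 1 CPM in each of the 6 libraries, against 6342 of 13929 genes (45.5%) in the whole table. They took 12.5%, 11.8% and 10.8% in the D1 libraries and 11.4%, 14.9% and 12.1% in the D10 libraries, a mean of 12.3% ± 1.42 (SD, n = 6). D10 replicate 2 was highest and D1 replicate 3 lowest, and the 95% Wilson interval of each share reached at most 0.0599 percentage points to either side, which covers counting error only. Their median gene stood at 1158 CPM, against 3.31 CPM over all genes. Of the 27, 7 were among the 20 leading genes by CPM and 12 among the leading 100, and 18 were among the leading 100 by TPM. A few genes carried the share, which was 4.47% when the 10 leading genes were left out of both the class and the total.

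At the head of the cascade, Rh1 is coupled to a Gq protein of 3 subunits, and the alpha subunit stood below the other two per length. The eye-specific beta subunit Gbeta76C was at 3141 ± 786 TPM and the gamma subunit Ggamma30A at 2955 ± 1019.6 TPM, while Galphaq, the alpha subunit, was at 300.2 ± 145 TPM (SD, n = 6 each). Galphaq had 440.4, 431 and 562 CPM in the D1 libraries and 636, 58.2 and 349 CPM in the D10 libraries, with its lowest value by far in D10 replicate 2. The kinases that phosphorylate the receptor, Gprk1 and Gprk2, were at 544 ± 224 CPM and 191 ± 10.2 CPM (SD, n = 6), and Gprk2 was among the 10 steadiest genes. The phosphatase rdgC, which reverses this step, was at 2459 ± 539 CPM. For the arrestins, Arr2 was at 9881 TPM and Arr1 at 2224 ± 478 TPM (SD, n = 6), so the mean of Arr2 was the larger per length.

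Downstream of phospholipase C, the scaffold protein encoded by inaD was at 1146, 982 and 682 CPM in the D1 libraries and 480.0, 1892 and 849 CPM in the D10 libraries. Its libraries varied over a wide range, with D10 replicates 1 and 2 at the ends. The eye protein kinase C inaC, a partner on this scaffold, was steady at 880.2 ± 73.5 CPM (SD, n = 6, CV 0.0835). Per length the pair differed by less than the SD of inaD, with 2179 ± 1077 TPM for inaD and 1888 ± 185 TPM for inaC. The gene stops, needed for the level of the phospholipase C protein, was at 1158 ± 255 CPM, and rtp, which binds the ninaC myosin, at 429 ± 146 CPM. Calmodulin, encoded by Cam, was at 1371, 1396 and 1424 CPM in the D1 libraries and 3619.8, 1561 and 2752 CPM in the D10 libraries. Calcium leaves the cell through the exchanger Calx, whose 4604 ± 429.6 CPM (SD, n = 6) was steady, with a range of 3970.4 to 5047 CPM.

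The lipid cycle that restores the substrate of phospholipase C was represented at every step. Next to rdgA, the transfer protein rdgB was at 2279 ± 273 CPM (SD, n = 6), the synthase Cds at 609 ± 165 CPM, and Pis, which makes phosphatidylinositol, at 126 ± 18.3 CPM. The kinases Pi4KIIIalpha and PIP5K59B were at 455 ± 214 CPM and 1299 ± 279.8 CPM. The lipase inaE was at 188 ± 19.9 CPM, and the phosphatase laza had the lowest level of the 27 genes, at 16.6 ± 6.27 CPM (SD, n = 6). Within this one class, mean CPM thus ranged from 16.6 to 24423.

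Genes for the maturation of rhodopsin and the supply of its chromophore were far less abundant, at 0.10% ± 0.0455 of counts (SD, n = 6). Of these 12 genes, 9 were detected. The calnexin Cnx99A, a chaperone of Rh1, was at 485, 457 and 310.1 CPM in the D1 libraries and 673, 1238 and 857 CPM in the D10 libraries, with the D1 libraries below the D10 libraries. The oxygenase ninaB, which cleaves carotenoids, was at 90.0 ± 46.5 CPM (CV 0.517, and 0.128 without D10 replicate 2) and Rab11, a trafficking GTPase, at 61.3 ± 11.3 CPM (SD, n = 6). The cyclophilin ninaA was at 29.6 ± 10.6 CPM. The chaperone gene Xport-A had no count in any of the 6 libraries. It lies wholly within the span of Xport-B on the same strand, and reads in a shared stretch may be dropped in counting, so this 0 sets no limit on its level.

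All 17 genes of rhabdomere and ommatidium structure were detected, at 2.44% ± 0.394 of counts (SD, n = 6). After chp came eys, which opens the space between the rhabdomeres, at 4759, 4722 and 3380.3 CPM in the D1 libraries and 1880.1, 3457 and 2696 CPM in the D10 libraries. The apical determinant crb was at 3047 ± 479 CPM and prom, a prominin of the microvillar membrane, at 2766 ± 801 CPM (SD, n = 6). Cpn, a calcium-binding protein of photoreceptors, was at 431, 460.3 and 202 CPM in the D1 libraries and 96, 171 and 229 CPM in the D10 libraries. Its 2 highest libraries were D1 replicates 1 and 2.

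**Figure D3:**
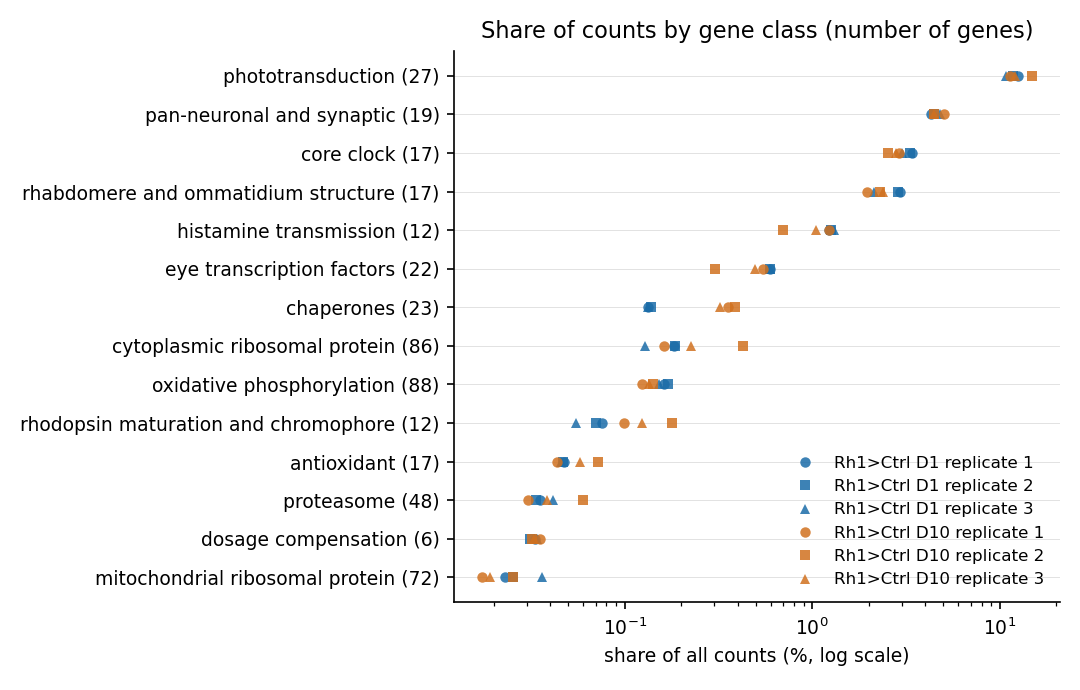
Share of all counts (%, log scale) taken by 14 gene classes in each of the 6 Rh1>Ctrl libraries (colour for age, symbol for replicate, number of genes in brackets). Phototransduction genes lie at 10.8% to 14.9% in every library, and the 86 cytoplasmic ribosomal protein genes at 0.129% to 0.429%.

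All 17 genes of the clock list were detected, with 2.99% ± 0.318 of counts (SD, n = 6), most of it from tim. Pdp1 was at 8127, 7693 and 8228 CPM in the D1 libraries and 8695, 3407 and 7203 CPM in the D10 libraries, with 5 libraries close together and D10 replicate 2 low. The repressor vri was at 1289 ± 128 CPM (SD, n = 6), the lowest CV of the 5 targets named above (0.0996), and per, the partner of tim, at 842, 799.8 and 450.0 CPM in the D1 libraries and 465, 1368 and 795 CPM in the D10 libraries. The transcriptional repressor cwo was at 1477, 1437 and 1485 CPM in the D1 libraries and 543, 319.9 and 488 CPM in the D10 libraries. Its D10 libraries all lay far below its D1 libraries. Per length, tim was at 11493 ± 1633 TPM, Pdp1 at 2998 ± 804 TPM, vri at 1373 ± 164 TPM, cwo at 944 ± 548 TPM and per at 879 ± 379 TPM (SD, n = 6 each). The activators were low beside their targets, with Clk at 46.8 ± 25.8 TPM and cyc at 66.2 ± 14.7 TPM. Clk had 17, 25.9 and 35.8 CPM in the D1 libraries and 65.2, 33.2 and 74.2 CPM in the D10 libraries. Among the kinases that act on clock proteins, sgg was at 1588 ± 315 CPM, nmo at 264 ± 84.6 CPM and dco at 263 ± 32.9 CPM (SD, n = 6). The blue-light receptor cry was at 15.2 ± 9.82 CPM and jet, a partner of cry in the light response, at 10.6 ± 2.46 CPM.

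Neuronal and synaptic genes took 4.59% ± 0.285 of counts (SD, n = 6), and all 19 were detected. Beside unc-13 and futsch, the vesicle fusion regulator cpx was at 4909 ± 1712 CPM, the calcium sensor Syt1 at 4776 ± 629.6 CPM and the active zone scaffold brp at 4087 ± 2005 CPM (SD, n = 6). For brp, 5 libraries lay between 2688 and 3936 CPM and D10 replicate 2 at 8092 CPM. The active zone gene Rim was at 2935 ± 293 CPM and the presynaptic calcium channel cac at 3716 ± 645 CPM. The neuronal RNA-binding protein elav was at 539, 562 and 647 CPM in the D1 libraries and 1062, 191 and 593 CPM in the D10 libraries. The sodium channel para, which carries action potentials in spiking neurons, was at 235 ± 103 CPM and 72.8 TPM, under the 1568 TPM of cac per length.

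Photoreceptors use histamine, which is made by the decarboxylase Hdc. Of the 12 genes on this list 10 were detected, at 1.13% ± 0.229 of counts (SD, n = 6), most of them from the sodium pump subunits Atpalpha and nrv3. Hdc was at 431, 424 and 299 CPM in the D1 libraries and 213, 292 and 270.4 CPM in the D10 libraries. Recovery of histamine runs through glia, which couple it to beta-alanine with ebony (e), and back in the photoreceptor, where CarT imports the product and tan (t) cleaves it. Both photoreceptor genes were present, CarT at 277 ± 41.8 CPM and t at 317 ± 100.3 CPM (SD, n = 6), while the glial e was at 13 ± 5.62 CPM. The receptor HisCl1 was at 81.1 ± 31.1 CPM. The other histamine receptor ort, which acts in the target neurons, was at 2.25 ± 1.73 CPM, and the glial transporter Balat at 1.58 ± 2.19 CPM, which was 0.701 CPM without D1 replicate 3.

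Among the 22 eye transcription factors 20 were detected, and the list held 0.521% ± 0.115 of counts (SD, n = 6). The leading members were oc, the Otd homeodomain protein, at 1650, 1556 and 1488 CPM in the D1 libraries and 1295, 448 and 1097 CPM in the D10 libraries, and the zinc finger factor gl at 948 ± 132 CPM (SD, n = 6). The homeodomain factor onecut was at 905 ± 265 CPM, Mef2 at 359 ± 77.2 CPM, so at 199 ± 37.3 CPM and Pph13, a regulator of rhabdomere genes, at 136 ± 34.8 CPM. Of the Pax6 genes, toy was at 609 ± 275 TPM and ey at 94.5 ± 41.3 TPM (SD, n = 6). D10 replicate 2 was the lowest library for oc, onecut, toy, Mef2 and ey. Low on this list were lz at 4.67 ± 2.91 CPM and ro at 0.695 ± 0.902 CPM, or 0.387 CPM without D1 replicate 3. They do not stand for all factors used earlier in eye development.

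Housekeeping classes took small shares of the nuclear counts. The 86 cytoplasmic ribosomal protein genes took 0.183%, 0.186% and 0.129% in the D1 libraries and 0.163%, 0.429% and 0.227% in the D10 libraries. Their mean of 0.22% ± 0.108 (SD, n = 6) became 0.178% without D10 replicate 2. Per length the class held 1.12% of the TPM. Of the 86 genes, 80 were detected. The median of the 86 was 21.6 CPM, against 20.1 CPM over the detected genes and 3.31 CPM over all genes. Per length their median was 116 TPM, against 9.93 TPM over all annotated genes. The 88 oxidative phosphorylation genes took 0.147% ± 0.0174 (SD, n = 6), and 61 were detected, with ATPsynC leading at 158 ± 33 CPM. Of the 48 proteasome genes 26 were detected, with 0.0399% ± 0.0105 of counts, and of the 72 mitochondrial ribosomal protein genes 22, with 0.0244% ± 0.00664 (SD, n = 6). The last of these detection shares, 30.6%, lay below the 45.5% of all genes. The antioxidant list held 0.0524% ± 0.0111 of counts (SD, n = 6), led by the stress factor cnc at 205 ± 36.6 CPM and the glutathione synthesis subunit Gclm at 123 ± 51.7 CPM. On that list, Sod1 was at 11.7 ± 1.77 CPM and Cat at 21 ± 5.36 CPM, while Prx5, which shares its whole span with CG7215 on the same strand, had no count.

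Chaperone genes held 0.133%, 0.139% and 0.133% in the D1 libraries and 0.355%, 0.388% and 0.324% in the D10 libraries. Of the 23 genes, 12 were detected. Hsp83, the fly Hsp90, was at 23.1, 30.1 and 19.4 CPM in the D1 libraries and 724, 1391 and 672 CPM in the D10 libraries. The constitutive Hsc70-4 was at 286, 286 and 195 CPM in the D1 libraries and 934, 1109 and 711 CPM in the D10 libraries, and the cochaperone DnaJ-1 at 83.2, 71.7 and 76.9 CPM in the D1 libraries and 364, 295 and 373 CPM in the D10 libraries. Of the 6 genes on the list with a mean of at least 100 CPM, 4 had every D10 library above every D1 library, these 3 and Hsc70-3, against 17.8% of all genes with at least 100 CPM. The ages overlapped in Hsp70Bb and in stv, a BAG cochaperone. Without D10 replicate 2, the mean of Hsp83 was 294 CPM in place of 477 CPM. The transcription factor of the heat shock response, Hsf, was at 80.6 ± 4.62 CPM (SD, n = 6), with a range of 74.5 to 85.2 CPM and overlapping ages. The small heat shock gene Hsp22, which lies within the span of CG4456 on the same strand, had no count. Counts of the Hsp70 genes, which are near-identical copies, were uneven: Hsp70Bb had 407 CPM, Hsp70Ab 78.6 CPM and Hsp70Bbb 0.158 CPM on average. Reads could be split among these copies in ways the table does not show, so the single values are uncertain.

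The genes commonly used as references spread over a wide range, with means from 4.36 CPM for Tbp to 1819 CPM for alphaTub84B. Highest was alphaTub84B at 1874, 2129 and 2749 CPM in the D1 libraries and 2681, 478 and 1004 CPM in the D10 libraries. The elongation factor eEF1alpha1 was at 433 ± 244 CPM and Act5C at 153 ± 67.3 CPM (SD, n = 6), with CVs of 0.563 and 0.441, which were 0.349 and 0.207 without D10 replicate 2. RpL32 was at 13.7 ± 5.7 CPM and had a CV of 0.417, which was 0.113 without D10 replicate 2. The levels of Gapdh1, Gapdh2 and Tbp were 21.7 CPM, 19.9 CPM and 4.36 CPM. Of the 17 reference genes, only Su(Tpl) was among the 10 steadiest. Su(Tpl) lies within the span of Mi-2 on the same strand, and reads of unspliced Mi-2 RNA cannot be told apart from its own.

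Markers of other cells were present over a wide range of levels, the highest being Zasp52 of the muscle list at 1707 CPM. Among inner photoreceptor genes, the opsins Rh3, Rh4, Rh5 and Rh6 were at 19.9 CPM, 18.3 CPM, 6.08 CPM and 15.4 CPM, and 10 of the 12 genes were detected. The summed list was at 252 to 366 CPM at D1 and 341 to 416 CPM at D10, of which pros, a factor of R7 and cone cells, gave 239 CPM. In TPM, the highest of these opsins stood far below ninaE, with 72.3 TPM for Rh3 against 21689 TPM for ninaE. Genes of other transmitter systems summed to 183 to 304 CPM at D1 and 261 to 379 CPM at D10. The leading ones were VGlut at 71.9 CPM, VAChT at 65.7 CPM and Gad1 at 32.9 CPM, while ChAT was at 14.5 CPM. VAChT lies within the span of ChAT on the same strand, and reads in their shared stretches cannot be assigned with certainty.

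For glia, 13 of the 15 genes were detected, and their sum was 307 to 372 CPM at D1 and 356 to 507 CPM at D10. The leading genes of this list were nrv2 at 106 CPM, Eaat1 at 68.1 CPM and Gs2 at 62.5 CPM. The defining glial factor repo was at 10.4 ± 9.88 CPM (SD, n = 6), with a range of 3.37 to 30.2 CPM and a mean of 6.402 CPM without D10 replicate 2, and moody at 9.82 ± 3.04 CPM. Pigment and cone cell genes summed to 973 to 1401 CPM at D1 and 1347 to 1898 CPM at D10, of which w gave 933 CPM. The flies carry mini-white markers, and their part in the counts of w was not tested. The next highest genes of this list were ca at 242 CPM and ct at 61.0 CPM. The pigment genes cn and v were at 0.437 CPM and 2.88 CPM, and the cone cell gene Crys at 10.2 CPM. The 15 muscle genes summed to 2431 to 2721 CPM at D1 and 1661 to 2204 CPM at D10, and 1707 CPM of this came from Zasp52. Without it, the highest were sls at 181 CPM and the myosin heavy chain Mhc at 167 CPM, while Act88F was at 5.15 CPM. The fat body list summed to 1085 to 1172 CPM at D1 and 1612 to 1995 CPM at D10, led by FASN1 at 760.2 CPM and apolpp at 642 CPM, with the yolk protein genes Yp1, Yp2 and Yp3 at 2.01 CPM, 0.884 CPM and 3.56 CPM (2.21 CPM for Yp3 without D10 replicate 2). The blood cell list summed to 99 to 135 CPM at D1 and 137 to 351 CPM at D10, and its highest library was D10 replicate 2. None of the defining markers of these 5 groups was at 0 in all libraries, and the part of other cells in the results above was not tested.

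**Figure D4:**
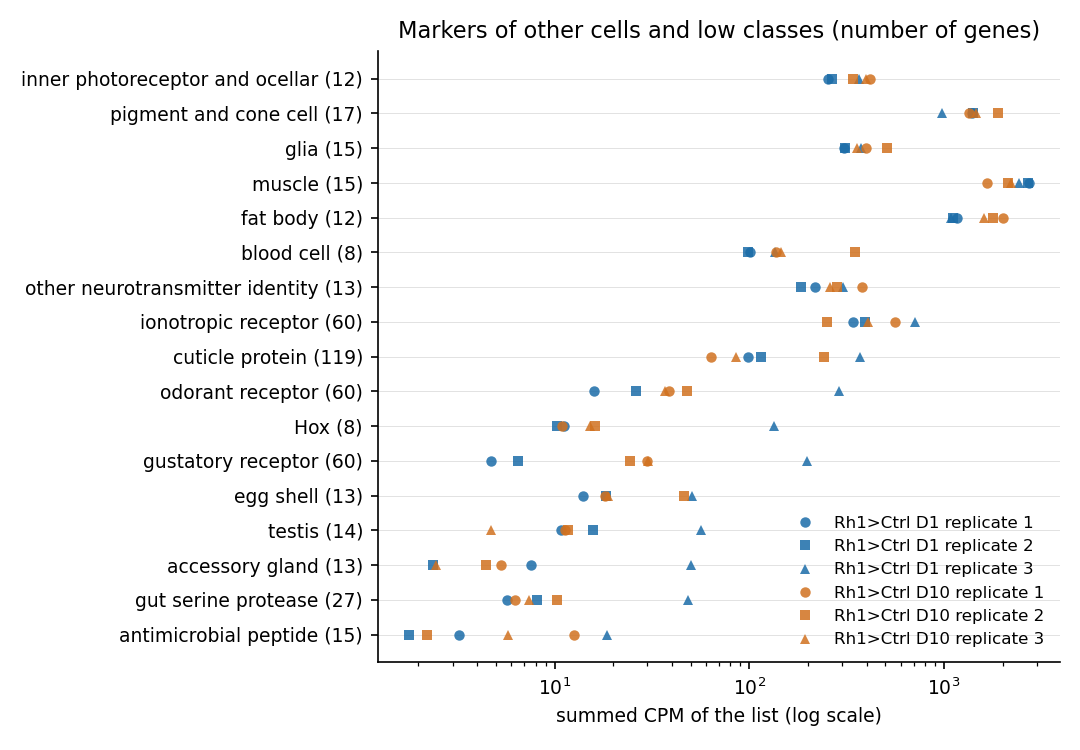
Summed CPM (log scale) of 17 lists of genes that mark other cells or are at low levels, for each Rh1>Ctrl library. Colour shows age, symbol shows replicate, and the number of genes is in brackets. D1 replicate 3 lies far to the right of the other 5 libraries for the odorant and gustatory receptors, Hox, testis, accessory gland and gut protease lists, and within their range for the muscle, glia and inner photoreceptor lists.

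Several classes were close to silent. No gene of the testis, accessory gland, gut serine protease, gustatory receptor or antimicrobial peptide lists was detected. The testis list summed to 56.7 CPM in D1 replicate 3 and 4.73 to 15.8 CPM in the other 5 libraries. The accessory gland list summed to 49.996 CPM in D1 replicate 3 and 2.38 to 7.58 CPM in the other 5 libraries, the gustatory receptors to 198 CPM in D1 replicate 3 and 4.74 to 30.0 CPM in the other 5 libraries, and the Hox genes to 135 CPM in D1 replicate 3 and 10.3 to 16.2 CPM in the other 5 libraries. In each of these the counts of D1 replicate 3 exceeded those of every other library. Unlike the lists with no detected gene, 3 of the 8 Hox genes were detected (37.5%), against 45.5% of all genes. The 3 counts that a count of 0 allows correspond to 0.568 to 2.21 CPM in a single library, so single values near 1 CPM are at the limit of this depth. Antimicrobial peptide genes summed to 18.7 CPM in D1 replicate 3 and 1.78 to 12.6 CPM in the other 5 libraries, and AttA and AttD had no count. Of the 111 replication-dependent histone genes, 109 had no count. These genes are near-identical copies, whose reads may be dropped in counting, so this does not show that they were not transcribed.

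Of the 60 odorant receptor genes, 3 were detected, and of the 60 gustatory receptor genes none. Among 60 ionotropic receptor genes 4 were detected, and 3 stood out. Ir41a was at 94.9, 87.5 and 117 CPM in the D1 libraries and 377, 50.9 and 199.7 CPM in the D10 libraries, with D10 replicate 1 highest and D10 replicate 2 lowest. Ir68a was at 154, 147 and 166 CPM in the D1 libraries and 102, 103 and 99.3 CPM in the D10 libraries, and Ir62a at 66 ± 6.94 CPM (SD, n = 6). The exons of Ir62a lie within the span of Iml1, on the same strand. Vm32E, the only detected gene of the egg shell list at 12.3 ± 2.68 CPM (SD, n = 6), lies likewise within Ca-beta. For such nested genes, reads of the host's unspliced RNA cannot be told apart from their own. The cell surface families Dpr and DIP had 25 of 32 genes detected, led by dpr7 at 202 ± 115 CPM (SD, n = 6).

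Over the whole table, 6342 of 13929 genes (45.5%) had at least 1 CPM in every library, and 6363 did without D1 replicate 3. No count in any of the 6 libraries was found for 662 genes (4.75%). Without D1 replicate 3 this number was 1941 (13.9%), so the count of silent genes rests largely on that library. The 1938 annotated genes among the latter were short, with a median span of 1023 bases. At the depth of the shallowest library, 8639 to 9386 genes would be expected to have a count in 5 of the libraries, and 12803 in D1 replicate 3. The table holds 13862 protein-coding genes, 3 non-coding RNA genes and 1 pseudogene, with 63 entries that had no match in the annotation and took 0.828% of counts. The 4 non-coding genes were at 1.67 CPM for lncRNA:CR43337, 1.1 CPM for CR14117, 1.01 CPM for lncRNA:CR32368 and 0.311 CPM for lncRNA:CR44335, and none was detected. Without D1 replicate 3 these means were 0.889 CPM, 0.654 CPM, 0.161 CPM and 0 CPM. With only 4 such entries, non-coding RNA as a class was not analysed here.

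By chromosome, the X took 18.6% ± 1.42 of counts (SD, n = 6) with 1128 of 2165 genes detected. It was at 21.4% in D10 replicate 2 and at 17.4% to 18.5% in the other 5 libraries. The arms 2L, 2R, 3L and 3R took 17.5%, 18.4%, 16.4% and 25%. On the small chromosome 4, 70 of 79 genes were detected (88.6%), the highest share of any chromosome. It took 3.3%, 3.29% and 4.74% in the D1 libraries and 4.57%, 1.19% and 3.05% in the D10 libraries, and unc-13, which lies on it, alone took 0.835%. The 6 genes found for dosage compensation, which raises transcription of the male X, held 0.0332% ± 0.00136 of counts (SD, n = 6). Of these, mle was at 149 ± 12.3 CPM and msl-2 at 30.3 ± 7.84 CPM. The RNA genes roX1 and roX2 of this list had no matching entry, so the share leaves them out.

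How steady a gene was across the 6 libraries was measured by its CV, for the 1256 genes with a mean of at least 100 CPM. Their median CV was 0.248, with quartiles of 0.166 and 0.37, while counting error alone would give a median of 0.0372 and at most 0.0659. A CV under 0.15 was found for 253 genes (20.1%) and a CV over 0.5 for 93. Without D10 replicate 2 the median CV was 0.179 and 485 genes lay under 0.15, among them 240 of the 253.

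Of the 10 steadiest genes, Gprk2 was the only one on the phototransduction list. The lowest CV was that of bbc, which encodes an enzyme of phospholipid synthesis, at 124, 129 and 124 CPM in the D1 libraries and 123, 126 and 128 CPM in the D10 libraries (CV 0.0189). It was followed by the kinase hppy at 482 ± 14.7 CPM (SD, n = 6), Su(Tpl), an ELL elongation factor, at 513, 550.4 and 559 CPM in the D1 libraries and 532, 537 and 553 CPM in the D10 libraries, and the zinc finger gene l(3)neo38 at 218 ± 7.6 CPM. The others were DIP1 at 428 ± 17.3 CPM, the synaptic scaffold CASK at 648 ± 29 CPM, CG17378 at 277 ± 13.3 CPM, Gprk2 at 191 ± 10.2 CPM, the corepressor gro at 212 ± 11.4 CPM and the transporter Oatp30B at 121 ± 6.55 CPM (SD, n = 6 each), with CVs up to 0.0543. These low CVs hold on the scale of plain CPM. TMM factors from edgeR shifted the libraries by -0.22 (D1 replicate 1) to 0.39 (D1 replicate 3) on the log2 scale, and DESeq2 size factors by -0.13 to 0.27. After TMM the CVs of the same 10 genes were 0.135 to 0.194 and only 31 genes in all lay under 0.15. With DESeq2 size factors they were 0.0934 to 0.156, and 104 genes lay under 0.15.

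A CV under 0.15 on all 3 scalings was found for 25 genes. Of the 10 steadiest, l(3)neo38, Gprk2 and Su(Tpl), which is nested in Mi-2, were among them. Others, chosen after their values were seen, were the neural cadherin CadN at 4240 CPM with CVs of 0.0693 by CPM, 0.149 by TMM and 0.111 by DESeq2 size factors, and the Gs protein subunit Galphas at 186 CPM with CVs of 0.142, 0.144 and 0.133. The chromatin regulator trx, with 469.7 CPM, had CVs of 0.114, 0.144 and 0.106. Which genes are called steady therefore depends on how the libraries are scaled.

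**Figure D5:**
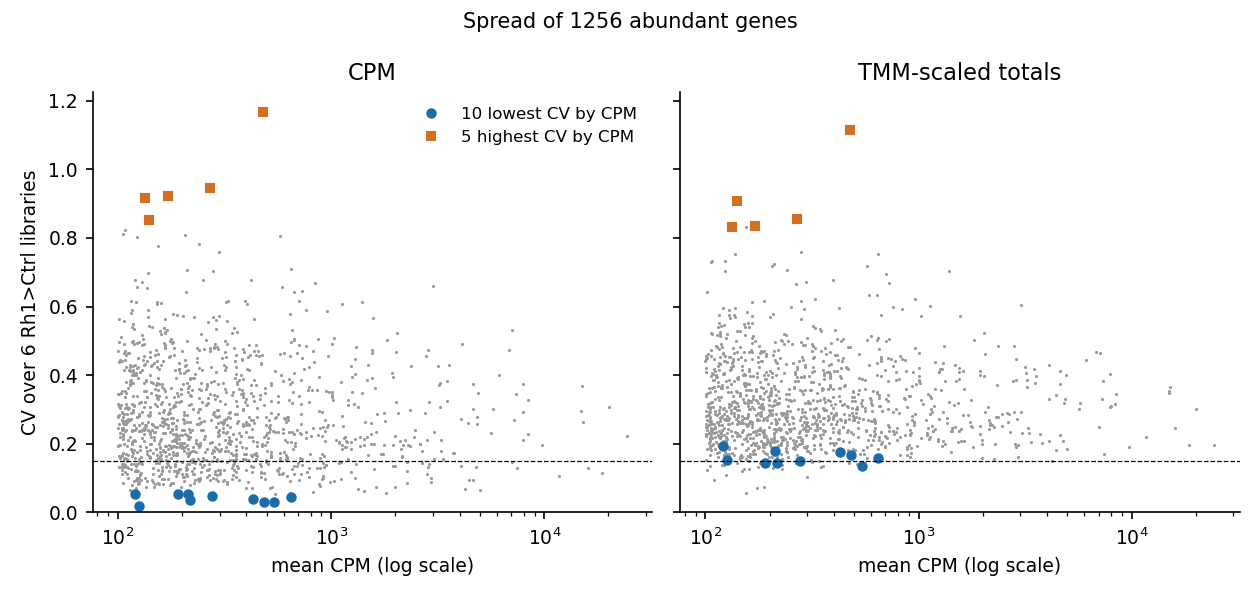
CV over the 6 Rh1>Ctrl libraries against mean CPM (log scale) for 1256 genes, with plain CPM on the left and TMM-scaled totals on the right (dashed line at a CV of 0.15). The 10 steadiest genes by CPM (blue) lie at 0.0189 to 0.0543 on the left and at 0.135 to 0.194 on the right, while Hsp83, the highest orange square, stays above 1 in both.

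At the other end, Hsp83 had the highest CV, 1.17, and its values by library are given above. The translation factor gene eIF5B (CV 0.945) was at 177, 161 and 161 CPM in the D1 libraries and 116, 784 and 215 CPM in the D10 libraries, so that 1 library, D10 replicate 2, set its CV, which was 0.214 without it, at a mean of 166 CPM in place of 269 CPM. Tsf1, a transferrin (CV 0.922), was at 65.2, 93.2 and 36.9 CPM in the D1 libraries and 132, 459 and 239 CPM in the D10 libraries. The transcription factor CrebA, a regulator of secretory genes (CV 0.853), was at 51.7, 47.1 and 80.2 CPM in the D1 libraries and 331, 82.6 and 248 CPM in the D10 libraries. CG9205 (CV 0.917) was at 56.8, 63.4 and 40.7 CPM in the D1 libraries and 99.3, 362 and 178 CPM in the D10 libraries, and its exons overlap trio on the other strand. For CrebA and Hsp83, the CV without D10 replicate 2 was 0.856 and 1.26, so their spread does not rest on that library. Without it, the means of Tsf1 and CG9205 were 113 CPM and 87.6 CPM, in place of 171 CPM and 133 CPM. Of the 9 phototransduction genes with the highest mean CPM, Arr2 (CV 0.659) and ninaE (CV 0.473) varied most across the 6 libraries, and Calx (CV 0.0933) and ninaC (CV 0.107) least.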

How the data were processed

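Nuclear RNA of Rh1>Ctrl photoreceptors was analysed in 6 libraries, 3 at D1 and 3 at D10, grouped by genotype and age as in their titles, at 1356529 to 5279375 counts per library. The authors deposited counts per gene, under a name that calls them normalized. All values are whole numbers and totals differed by 3.89-fold, so they were treated as counts without normalization. The submitters' processing notes name Trimmomatic, STAR, SAMtools and DESeq2 and the dm6 genome. Versions, the strand setting and the annotation release are not given in the sources used here. The 6 columns of the other genotype were read in no step.

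CPM was computed from the column totals. TPM was computed with the summed exon length of Ensembl release 115, in which 13866 of 13929 entries were found. The counted region of each gene is not known to be exactly this length. CV is the SD over the mean of CPM in the 6 libraries. Detected means at least 1 CPM in every library, and silent means 0 counts in all. No test was run and no p-value is given, since all results are descriptions of 1 set of libraries.

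The text names the 20 genes with the highest mean CPM, the 4 markers, the 10 highest by TPM, the 4 non-coding genes, the 10 lowest and 5 highest CVs among genes with at least 100 CPM, the reference genes, and members of the gene lists, with up to 3 leading ones each and others by their roles. Names outside this rule were chosen after their values were seen. The members and lists were chosen with earlier results of these data known. In the lists, 4 or fewer symbols each had no match and were left out.

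Alternatives were TMM factors (edgeR 4.0.16), size factors (DESeq2 1.42.0), TPM, other thresholds, ranking by the median, and leaving out each library in turn. The calculations were tested on simulated data. Python 3.11.15, pandas 2.3.3 and R 4.3.3 were used, and figures were drawn with matplotlib 3.10.9.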

Additional observations from a re-analysis of the deposited data

Results flagged for a closer look

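Each of 69 measures (library totals, shares of gene classes and chromosomes, and the CPM of the leading genes) was screened for a library whose gap to the nearest of the other 5 exceeded Dixon's 95% value for the share of the whole range that a gap may take. The 6 libraries are of 2 ages, and chance flags about 1 in 20 measures. In all, 18 measures had such a library. The extreme was D1 replicate 3 in 10 of them and D10 replicate 2 in 8, and no other library was an extreme.

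D1 replicate 3 held 13097 genes with a count, against at most 10314 in the others. Its shares of counts were also the highest for testis genes (0.00567%, others at most 0.00158%), accessory gland genes (0.0050%, others at most 0.000758%), Hox genes (0.0135%, others at most 0.00162%) and gut serine proteases (0.00485%, others at most 0.00103%). The same held for odorant receptors (0.0288%, others at most 0.00479%), gustatory receptors (0.0198%, others at most 0.003%), the non-coding and pseudogene rows (0.0016%, others at most 0.000277%) and the replication-dependent histones (0.00041%, others at most 6.2e-05%). Chromosome Y took 0.0128% of its counts, against at most 0.00147% in the others. The cause was not tested.

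D10 replicate 2 was highest for norpA (35506 CPM, others at most 22971), futsch (14510 CPM, others at most 7468), chromosome X (21.4%, others at most 18.5%), cytoplasmic ribosomal protein genes (0.429%, others at most 0.227%) and blood cell genes (0.0351%, others at most 0.0145%). It was lowest for Pdp1 (3407 CPM, others at least 7203), Atpalpha (4993 CPM, others at least 7142) and the eye transcription factors (0.302%, others at least 0.493%). It is the shallowest of the 6 libraries, and the cause was not tested.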

How the results depend on the processing

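Of 108 alternative values of 11 results, 92 stayed within the spread between libraries, or for counts of genes within 1.5 times, and 16 did not. For the shares of gene classes, leaving out 1 library cannot move the mean beyond this spread, so those values were fixed in advance. The same nearly holds for the shares of the leading genes. For the non-coding and pseudogene rows the spread (0.000595%) exceeded the mean share (0.000409%). Under a threshold of at most 3 counts in all, the silent genes numbered 1135 in place of 662, and leaving out 1 library gave 667 to 1941, the highest without D1 replicate 3. At the depth of the shallowest library, D1 replicate 3 was expected to show 12803 genes with a count. On the TPM scale the 100 leading genes held 36.9%, 263 genes held the leading 50%, 12 of the 20 leading genes were kept, ribosomal protein genes held 1.12%, and the 4 non-coding and pseudogene rows held 0.00243%. Without the 10 leading genes in numerator and denominator, phototransduction genes held 4.47%. With every gene that had a count in at least 1 library, the median CV was 0.762. The number of genes with a CV under 0.15 was 31 with TMM and 104 with DESeq2 size factors, 25 of which were shared by all 3 scalings, and 419 with the SD taken within each age. It was 87 at a threshold of 0.10, 451 at 0.20, and 224 to 485 when 1 library was left out, the highest without D10 replicate 2. Leaving out 1 library gave 6363 to 6666 detected genes. No paired analysis was made because no group was tested against another. Depth limits single values near 1 CPM, since 3 counts are 2.21 CPM in the shallowest library.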
